A study of Mus musculus with 4 samples.

Results

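The Notch pathway was followed through 10 genes: the receptors Notch1, Notch2 and Notch3, the ligands Dll1, Dll3 and Jag1, the receptor-modifying enzyme Lfng, the nuclear factor Rbpj, and the target genes Hes1 and Hes5. They were taken by gene name from the 3 deposited tables, which list 22084 genes in all, and each of the 10 was found once and in every table. RNA came from forebrain tissue of mouse embryos of the mixed strain B6D2F2 at E13.5, during cortical neurogenesis. Library KO26F and library KO23M are labelled as carrying no intact Tcf20 allele. Library WT22M is titled wild type while its genotype field says heterozygous, and library WT25F is wild type under both labels. Because WT22M carries a wild-type Tcf20 allele under either label, WT22M and WT25F together are called carriers. The tissue is telencephalic by title, whereas the protocol names the cortex. The design text speaks of triplicates, and 4 libraries were analysed here. The kind of knockout allele is not given in the labels.

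Notch receptors are bound by Delta and Jagged ligands on neighbouring cells, and are then cut so that the intracellular part reaches the nucleus. There it joins Rbpj, which binds DNA and otherwise holds target genes off, and switches on Hes genes. In the embryonic forebrain, Hes1 and Hes5 repress proneural genes and keep radial glia dividing, while cells on the way to becoming neurons make the ligands.

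Total counts were even, from 17791641 to 18509743 per library. Tcf20 itself stood at 98.6 and 104 CPM (the count scaled to the library's total) in KO26F and KO23M, against 111 and 118 CPM in WT22M and WT25F, a difference that did not pass (edgeR log2 fold change -0.18, SE 0.10, adjusted p = 1); with the deleted part unknown, whole-gene counts do not check the genotype. Genes that mark the telencephalon were present in every library: Emx1, of the cortical primordium, stood at 116 and 140 CPM in KO26F and KO23M, 133 CPM in WT22M and 107 CPM in WT25F, and Emx2 at 43.5 and 39.5 CPM in KO26F and KO23M, 41.8 CPM in WT22M and 42.5 CPM in WT25F. The carriers differed from each other. The 7 choroid plexus markers summed to 196 CPM in WT22M, against 942 CPM in WT25F, and the 6 diencephalon markers to 29.3 CPM in WT22M, against 86.3 CPM in WT25F. Results that rest on WT25F or WT22M are given for each library.

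In the coordinates of the files, which match GRCm38 gene models for all but Notch3, the receptor genes lie as follows: Notch1 (ENSMUSG00000026923) at chr2:26457903-26516663, Notch2 (ENSMUSG00000027878) at chr3:98013527-98150361 and Notch3 (ENSMUSG00000038146) at chr17:32120820-32166880. The ligand genes are Dll1 (ENSMUSG00000014773) at chr17:15367354-15376872, Dll3 (ENSMUSG00000003436) at chr7:28293553-28302238 and Jag1 (ENSMUSG00000027276) at chr2:137081456-137116644. The modifier gene is Lfng (ENSMUSG00000029570) at chr5:140607320-140615545 and the DNA-binding partner gene is Rbpj (ENSMUSG00000039191) at chr5:53466152-53657362, while the target genes are Hes1 (ENSMUSG00000022528) at chr16:30064384-30067796 and Hes5 (ENSMUSG00000048001) at chr4:154960923-154962371. Counts are per whole gene, so exons and UTRs are not told apart.

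Promoter sequence was read from RefSeq windows on GRCm38.p6 that run from 250 bases before to 50 bases after a start site; 9 of the 10 genes had at least 1 window, and Hes1 had none. Those of Hes5, a direct Rbpj target, and of Dll1 and Dll3, targets of the proneural factors, are shown because these factors link the receptors, the targets and the ligands. In Hes5, capitals mark the Rbpj core TGGGAA on either strand; in Dll1 and Dll3 they mark the E-box CANNTG, which proneural factors recognise.
Hes5 (chr4:154960673-154960972, plus strand): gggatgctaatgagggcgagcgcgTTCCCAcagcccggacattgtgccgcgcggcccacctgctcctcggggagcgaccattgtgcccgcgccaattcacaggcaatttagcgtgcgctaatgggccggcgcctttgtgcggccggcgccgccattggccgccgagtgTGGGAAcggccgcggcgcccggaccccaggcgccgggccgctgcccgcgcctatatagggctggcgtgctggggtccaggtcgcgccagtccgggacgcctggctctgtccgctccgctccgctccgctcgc
Dll1 (chr17:15376883-15377182, minus strand): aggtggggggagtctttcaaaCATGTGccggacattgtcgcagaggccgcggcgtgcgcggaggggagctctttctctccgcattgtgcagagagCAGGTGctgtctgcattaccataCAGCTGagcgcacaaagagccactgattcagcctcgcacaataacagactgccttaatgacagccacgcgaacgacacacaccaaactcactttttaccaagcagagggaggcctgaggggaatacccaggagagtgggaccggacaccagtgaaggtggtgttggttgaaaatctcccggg
Dll3 (chr7:28301736-28302035, minus strand): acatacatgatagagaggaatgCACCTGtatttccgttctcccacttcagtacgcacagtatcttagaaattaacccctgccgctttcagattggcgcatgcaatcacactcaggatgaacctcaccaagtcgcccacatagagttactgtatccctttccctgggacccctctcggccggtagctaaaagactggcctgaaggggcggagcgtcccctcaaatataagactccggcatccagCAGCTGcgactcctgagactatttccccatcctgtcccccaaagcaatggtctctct
The Hes5 window held 2 matches to the Rbpj core, starting 226 and 82 bases before the start site, on opposite strands. Of 32851 such windows in the mouse table, 25.6% held at least 1 match and 3.79% at least 2. The Dll1 window held 3 E-boxes and the Dll3 window 2, of which the second starts 7 bases before the start site; 39.6% of all windows held at least 2 and 17.6% at least 3. The N-box CACNAG, bound by Hes proteins, was searched on both strands too and was found once in this Dll1 window and not in the Dll3 window, against 42.5% of all windows with at least 1. Dll1 has another window, which held 1 E-box. Members whose windows are not shown had these motifs as well. The Lfng window held 2 Rbpj cores and 4 E-boxes. For the Rbpj gene, 1 window held 2 cores and 2 E-boxes, and another held 1 core and 0 E-boxes. The Jag1 window held 1 E-box, and those of Notch1, Notch2 and Notch3 held 0 of either motif. No 2 matches overlapped in the windows shown. A match shows only that the letters are present.

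Counts were set against the joined length of all exons that GENCODE vM21 gives for a gene, over all its transcripts. On this scale Lfng was the highest member at 22.3 CPM per kb (SD over the 4 libraries 1.74). The joined length was largest for Notch1 (14.2 kb) and Rbpj (12.8 kb). Which transcripts were in use was not tested, and the order depends on these lengths. Lfng adds sugar to Notch receptors and changes which ligands they answer. Dll3, Hes1 and Dll1 followed, with mean levels of 14.4, 14.0 and 12.8 CPM per kb, and their ranges over libraries overlapped. Notch3 was next at 10.1 CPM per kb (range 9.25 to 11). Hes5, Notch1, Rbpj and Notch2 came after it, at mean levels of 6.92, 6.84, 6.55 and 5.29 CPM per kb, each overlapping its neighbour. Jag1 was lowest at 2.18 CPM per kb, below the range of Notch2. The order of neighbours other than Lfng, Notch3 and Jag1 was thus not separated by the spread between libraries.

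**Figure D1:**
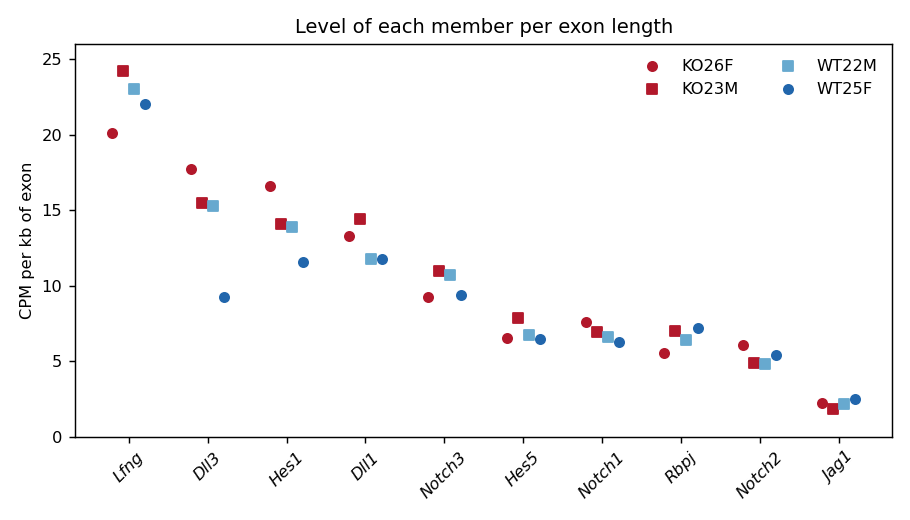
Level of each member in CPM per kb of exon (vertical axis) in each of the 4 libraries, ordered by the mean. Lfng lies between 20.1 and 24.2 in all libraries, Jag1 between 1.81 and 2.49, and the single low Dll3 point at 9.23 is WT25F.

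None of the 10 members passed an adjusted p of 0.05 when the KO libraries were set against the carriers. Both arms held 2 libraries, and p-values from edgeR's quasi-likelihood test were adjusted over 16252 genes, of which 10 (0.0615%) passed, 5 higher and 5 lower (0.0308% each). DESeq2 and limma voom likewise called 0 members, and at an unadjusted p under 0.05 there was 1, Dll1, where 2.86% of all genes tested lay under that value. Of the 10 members, 7 had a positive log2 fold change, against 50.7% of all genes. Their median was 0.11, against 0.00 over all genes. In WT22M against WT25F, a comparison of carriers alone, 7 of 10 were positive too, with a median of 0.09. In 4 members, Notch1, Dll1, Dll3 and Hes1, both KO libraries lay above both carriers, an order shown by 13.6% of all genes tested. In 0 members did both lie below, an order shown by 13.4% of all genes. WT25F was the lowest library in 4 members and the highest in 2, against 20.1% and 25.4% of all genes. Separate litters are not stated in the labels, and the p-values reflect only how these 4 samples vary.

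**Figure D2:**
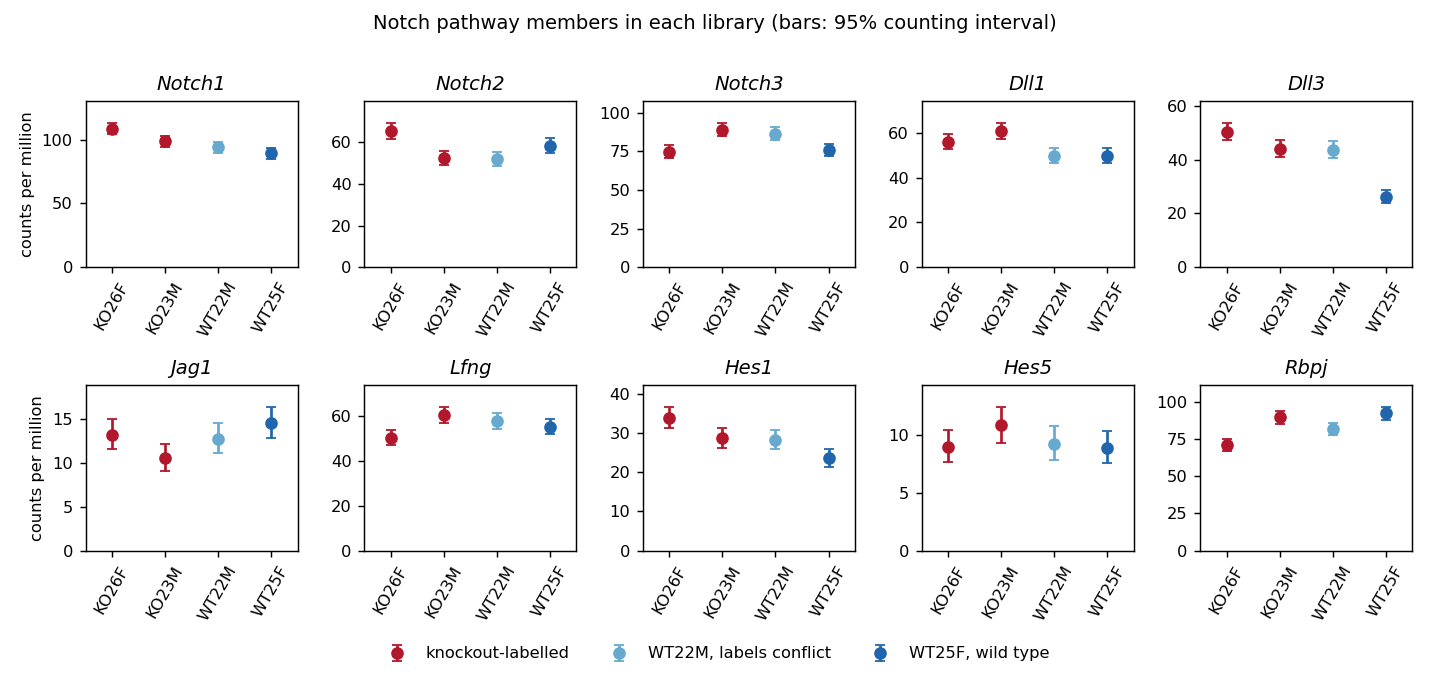
CPM of the 10 members (vertical axes, from 0) in KO26F, KO23M, WT22M and WT25F, with 95% exact Poisson intervals that cover counting error only. Dll3 is low in WT25F alone at 26.3 CPM, and Dll1 is at 49.6 CPM in both carriers and above 55 in both KO libraries.

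Of the receptors, Notch1, the main receptor of cortical progenitors, had 108 CPM in KO26F and 98.5 CPM in KO23M, against 93.8 CPM in WT22M and 89.1 CPM in WT25F. The arms did not overlap, but the gap between KO23M and WT22M was smaller than that between the KO libraries. The fitted log2 fold change was 0.17 (SE 0.10, edgeR adjusted p = 1). Notch2, a second receptor of progenitors, had 65.4 CPM in KO26F and 52.6 CPM in KO23M, against 52.0 CPM in WT22M and 58.3 CPM in WT25F. KO26F was the highest, and the F library lay above the M library in both arms. The fitted value of 0.09 (log2, SE 0.12, adjusted p = 1 by edgeR) turned to -0.05 without it. Notch3, which is also the receptor of pericytes and smooth muscle around vessels, had 74.8 CPM in KO26F and 89.1 CPM in KO23M, against 86.6 CPM in WT22M and 75.7 CPM in WT25F. Its levels followed the letter in the titles, M above F in both arms, and not the genotype (log2 fold change 0.01, SE 0.12, edgeR adjusted p = 1). The 8 pericyte and mural cell markers summed to 191 and 192 CPM in KO26F and KO23M, against 226 and 225 CPM in WT22M and WT25F, so this marker sum and Notch3 did not move alike; the part of those cells in the Notch3 level was not tested.

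Of the ligands, Dll1, the Delta ligand that newly forming neuronal precursors show to their neighbours, had 56.0 CPM in KO26F and 60.8 CPM in KO23M, against 49.6 CPM in both WT22M and WT25F. This was the one member whose KO values lay above the carriers by more than the KO libraries differed from each other. The arms averaged 58.4 ± 3.38 and 49.6 ± 0.0163 CPM (SD, n = 2 each). The log2 fold change was 0.23 (SE 0.11, unadjusted p = 0.0471, edgeR adjusted p = 1), and it lay between 0.15 and 0.31 when a library was left out. Jag1, a ligand of another class that is made in progenitor domains and by vessels, had 13.2 CPM in KO26F and 10.5 CPM in KO23M, against 12.7 CPM in WT22M and 14.5 CPM in WT25F, and the arms overlapped (log2 fold change -0.20, SE 0.17, edgeR adjusted p = 1). The value was -0.07 without KO23M and -0.35 without KO26F. Jag1, with 195 to 260 counts per library, and Hes5, with 159 to 199, were the least counted members.

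Dll3 was the member that varied most. Dll3 is a divergent Delta protein that acts inside the cell that makes it and does not activate Notch in neighbours. It had 913 counts (50.4 CPM) in KO26F and 816 counts (44.1 CPM) in KO23M, against 777 counts (43.7 CPM) in WT22M and 472 counts (26.3 CPM) in WT25F. KO26F, KO23M and WT22M lay between 43.7 and 50.4 CPM, and WT25F alone was low; its 95% counting interval of 24.0 to 28.8 CPM did not reach the 40.7 CPM that bounds the interval of WT22M from below. The ratio of the highest to the lowest library was 1.91, and of 10227 genes with a mean of at least 10 CPM only 0.988% had a larger one, while the other 8 members at that level had ratios from 1.19 to 1.44. Against the carriers as a pair, Dll3 stood at 0.43 on the log2 scale (SE 0.30, adjusted p = 1 by edgeR); it was 0.09 without WT25F and 0.86 without WT22M (edgeR adjusted p = 0.000538). Without KO23M it was 0.50 and passed as well (edgeR adjusted p = 0.0451). In each of these fits 1 arm holds a single library, which is assumed to vary like the other arm.

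With WT25F as the only carrier, as in the authors' tables, Dll3 rose in the KO libraries by 0.86 on the log2 scale (SE 0.16, edgeR adjusted p = 0.000121). It was 1 of 56 genes called among 16252 (0.345%), 1 of 27 higher (0.166%) against 29 lower (0.178%), and the only one of the 10 members. At an unadjusted p under 0.05 Hes1 joined it (0.42, SE 0.18), where 3.43% of all genes lay, and 8 of 10 members were on the higher side, against 50.9% of all genes. In WT22M against WT25F, Dll3 was higher by 0.76 (log2, SE 0.18, adjusted p = 0.00616 by edgeR). It was again the 1 member called and the 1 member at an unadjusted p under 0.05, where 116 genes (0.714%) and 4.88% of genes lay; 29 calls were higher (0.178%) and 87 lower (0.535%), and 7 of 10 members were on the higher side, against 49.5% of all genes. On simulated counts, KO against WT25F and WT22M against WT25F called more unchanged genes than an adjusted p under 0.05 is meant to allow. Both Dll3 calls carry this limit. These comparisons share WT25F, and WT22M against WT25F compares 1 library with 1, under a spread taken from the KO pair. Both calls were lost with DESeq2 (adjusted p = 0.118 for KO and 0.933 for WT22M), without the filter on low counts (edgeR adjusted p = 1 and 0.979), and with the spread of the fit in 2 arms (edgeR adjusted p = 1 and 0.994). The log2 fold changes in these alternatives were 0.85 to 0.86 for KO and 0.76 to 0.77 for WT22M, and limma voom kept the KO call (adjusted p = 0.0144) and not that of WT22M (adjusted p = 0.179). The authors' deposited tables give Dll3 log2 fold changes of 0.94 for KO26F, 0.74 for KO23M and 0.73 for WT22M, each over WT25F, none of which reaches the log2 fold change of 1 that their mark of significance requires.

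The low Dll3 of WT25F went with a high level of diencephalon genes there. The markers Tcf7l2, Gbx2, Olig3, Irx1, Lhx9 and Sim1 summed to 33.8 CPM in KO26F, 30.6 CPM in KO23M, 29.3 CPM in WT22M and 86.3 CPM in WT25F. All 6 were on the lower side in KO libraries against WT25F, and 4 passed, where 29 of all genes tested (0.178%) were called lower. Tcf7l2 gave 46.1 CPM and Lhx9 26.2 CPM of the sum in WT25F. Sim1 hardly differed, at 0.669 CPM in WT25F, against 0.717 CPM in KO26F, 0.324 CPM in KO23M and 0.562 CPM in WT22M. No marker of the list was at 0 in any library. In tissue of mixed cells, fewer cells of a type and less RNA per cell cannot be told apart, and the part of diencephalon tissue in the Dll3 value was not tested.

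**Figure D3:**
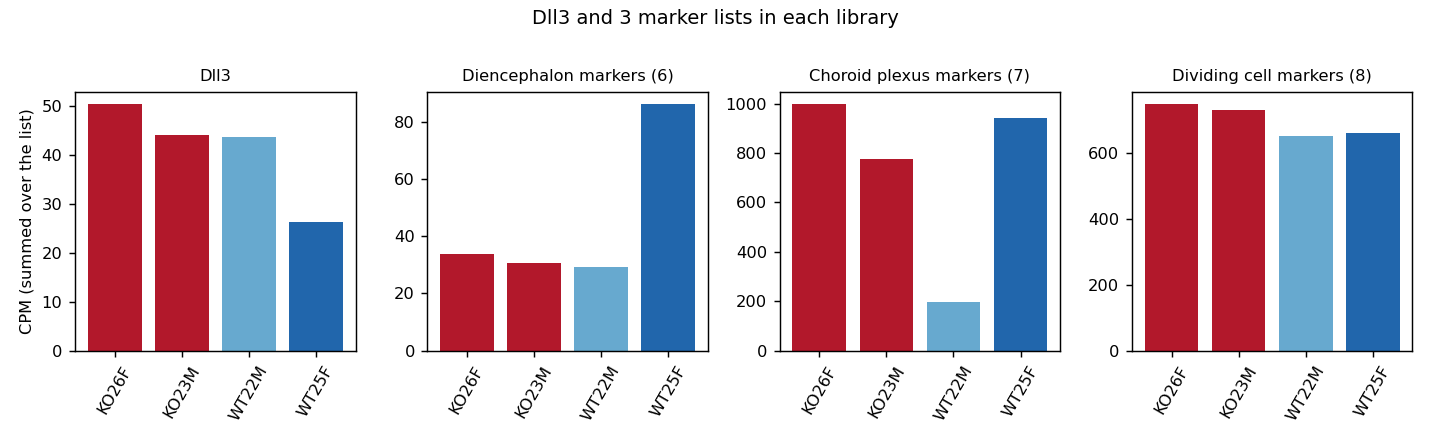
CPM of Dll3 and summed CPM of the diencephalon, choroid plexus and dividing cell markers (vertical axes, from 0) in the 4 libraries. WT25F is lowest for Dll3 at 26.3 and highest for the diencephalon sum at 86.3, WT22M is lowest for the choroid plexus sum at 196, and the dividing cell sum is 747 and 730 in KO26F and KO23M, against 651 and 659 in WT22M and WT25F.

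Lfng, the fringe enzyme, had 50.3 CPM in KO26F and 60.6 CPM in KO23M, against 57.6 CPM in WT22M and 55.2 CPM in WT25F. The carriers lay between the KO libraries, and the log2 fold change was -0.03 (SE 0.12, edgeR adjusted p = 1). Rbpj, the DNA-binding partner of all Notch receptors, had 70.9 CPM in KO26F and 89.4 CPM in KO23M, against 81.6 CPM in WT22M and 92.1 CPM in WT25F. KO26F was the lowest and WT22M the next, and the carriers lay between or above the KO libraries. The fitted value of -0.11 (log2, SE 0.12, adjusted p = 1 by edgeR) turned to 0.06 without it. The tables list no other gene whose name starts with Rbpj.

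Of the targets, Hes1 had 614 counts (33.9 CPM) in KO26F and 530 counts (28.6 CPM) in KO23M, against 502 counts (28.2 CPM) in WT22M and 423 counts (23.6 CPM) in WT25F. The arms did not overlap, but KO23M and WT22M lay within each other's counting intervals. The log2 fold change was 0.27 (SE 0.14, unadjusted p = 0.0645, edgeR adjusted p = 1). It was 0.12 without WT25F, 0.16 without KO26F and 0.42 without WT22M. Hes5 had 162 counts (8.94 CPM) in KO26F and 199 counts (10.8 CPM) in KO23M, against 163 counts (9.16 CPM) in WT22M and 159 counts (8.86 CPM) in WT25F. KO26F, WT22M and WT25F were nearly the same and KO23M was higher, and the log2 fold change was 0.13 (SE 0.19, edgeR adjusted p = 1). The fitted value of neither target was below 0.

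**Figure D4:**
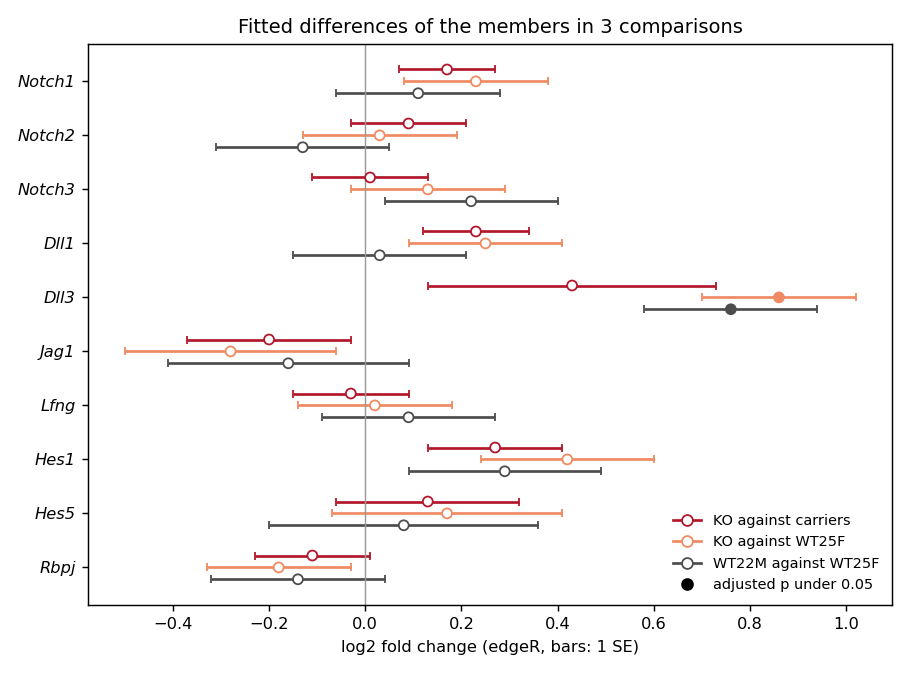
Fitted log2 fold change of each member (horizontal axis, bars 1 SE) for KO against carriers, KO against WT25F and WT22M against WT25F; filled points passed an edgeR adjusted p under 0.05. Dll3 is filled in both comparisons with WT25F, at 0.86 and 0.76, and no other point is filled.

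The letters F and M in the titles occur once in each arm, so each KO library could also be set against the carrier of its own letter, as a ratio of TMM-scaled CPM with exact counting intervals and no test. In the F pair, KO26F over WT25F, the interval left out 0 for 7 of 10 members, against 28.7% of the 7874 tested genes whose mean count lay within the members' range. The log2 ratios were 0.93 (0.77 to 1.09) for Dll3, 0.51 (0.33 to 0.70) for Hes1, 0.27 (0.18 to 0.37) for Notch1 and -0.39 (-0.49 to -0.28) for Rbpj. In the M pair, KO23M over WT22M, it did so for 2 of 10, against 27% of those genes: Dll1 at 0.30 (0.17 to 0.43) and Rbpj at 0.14 (0.03 to 0.24). Dll3 in the M pair was at 0.02 (-0.13 to 0.16) and Hes1 at 0.02 (-0.15 to 0.20). Dll1 was the only member with an interval above 0 in both pairs, 0.17 (0.03 to 0.30) in the F pair. Counting error is only part of the spread: between KO26F and KO23M, which share their genotype label, the interval left out 0 for 9 of 10 members, against 41.2% of those genes. Between WT22M and WT25F it did so for 6 of 10, against 35.4%. With the letter as a term in the edgeR fit, 123 genes (0.757%) were called, 61 higher (0.375%) and 62 lower (0.381%), and 0 of the 10 members.

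**Figure D5:**
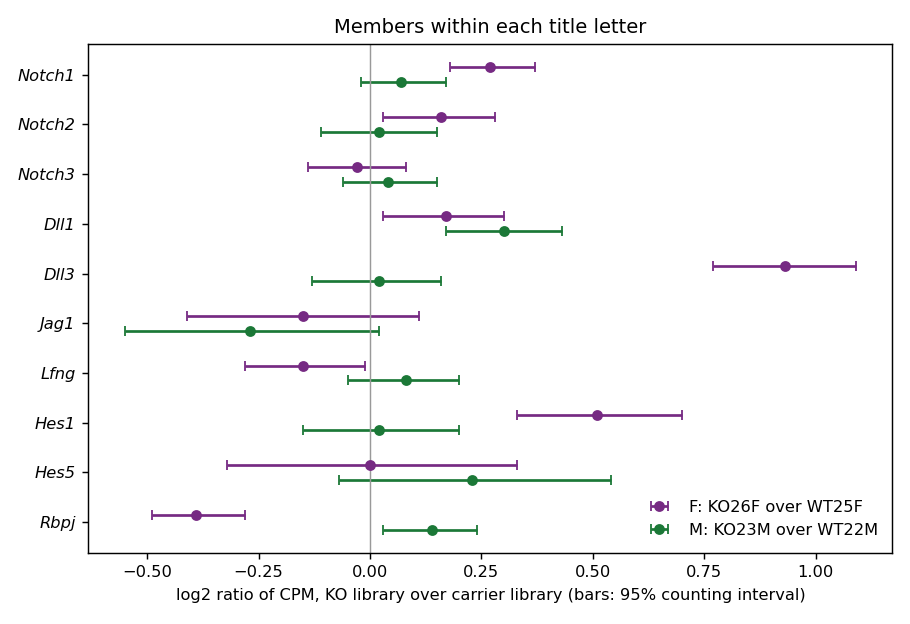
Log2 ratio of KO over carrier CPM (horizontal axis) for each member in the F libraries and the M libraries, with 95% counting intervals. Dll3 and Hes1 lie at 0.93 and 0.51 in the F pair and at 0.02 in the M pair, and Rbpj lies on opposite sides of 0.

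The authors' deposited tables mark 0 of the 10 members as significant, where the marks cover 1.96% of genes for KO26F, 2.9% for KO23M and 3.62% for WT22M. By the adjusted p of the authors' deposited tables alone, under 0.05, there were 6 members for KO26F, 6 for KO23M and 5 for WT22M. Of all genes, 13.7%, 22.1% and 22.4% lay under that value. Those shares include genes with few counts and were not matched to the counts of the members. Each p-value sets a single library against WT25F, which the 3 tables share.

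The rest of the pathway was described through 62 further genes grouped by role, of which 61 were found and tested. None passed in any of the 3 comparisons by edgeR. For KO against carriers 38 of the 61 were on the higher side, with a median log2 fold change of 0.02, and both KO libraries lay above both carriers in 9 (14.8%, against 13.6% of all genes) and below in 5 (8.2%, against 13.4%). At the level of the ligands, 4 of 5 were on the lower side, among them Dlk2, a non-canonical ligand, at 20.0 and 23.3 CPM in KO26F and KO23M, against 24.1 and 26.8 CPM in WT22M and WT25F (log2 fold change -0.23, edgeR adjusted p = 1), Jag2 at a log2 fold change of -0.13 and Dner at 0.09. The endothelial receptor Notch4 was level, at 20.4 and 20.5 CPM in KO26F and KO23M, against 21.2 and 20.1 CPM in WT22M and WT25F.

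Mfng, another fringe enzyme, had 115 and 124 CPM in KO26F and KO23M, against 105 and 90.8 CPM in WT22M and WT25F. Both KO libraries lay above both carriers (0.28 on the log2 scale, SE 0.11, adjusted p = 1 by edgeR). With the letter as a term Mfng passed, at an edgeR adjusted p of 0.017. That fit called 123 genes (0.757%) and leaves 1 residual degree of freedom. The fringe partners Pofut1 and Poglut1, which add the first sugars to Notch, were at -0.13 and -0.05 on the log2 scale. Of the ubiquitin ligases that drive ligand uptake, Mib2, Mib1 and Neurl1b were at -0.16, 0.07 and -0.04. Of the 10 cleavage genes, 6 were on the higher side with a median of 0.03, and Aph1b, Aph1c and Ncstn, parts of the gamma-secretase, were at 0.15, 0.24 and -0.06.

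Of the co-activators, Maml3, which bridges Notch and Rbpj to the transcription machinery, was at 0.21 on the log2 scale, the acetyltransferase gene Kat2b at -0.15 and Maml1 at 0.06. All 9 co-repressor genes were on the higher side, but by a median of 0.05, with Kdm5a at 0.09 and Tle1 at 0.06. Among other targets, Hey1, a relative of the Hes genes, had 34.0 and 39.2 CPM in KO26F and KO23M, against 29.2 and 33.9 CPM in WT22M and WT25F (log2 fold change 0.21, edgeR adjusted p = 1), and Id4 was at 0.12. Hes7, the oscillator gene of the somites, was close to the floor, with 7 and 2 counts in KO26F and KO23M, against 16 and 14 counts in WT22M and WT25F. The ratio of the 9 KO counts to the 30 carrier counts, scaled to depth, was 0.293 (95% counting interval 0.122 to 0.632), and the gene did not pass (unadjusted p = 0.0188, edgeR adjusted p = 1). Hes6, which hinders Hes1 and is made by precursors leaving the cycle, was at 0.04. Of the 10 negative regulators 7 were on the higher side with a median of 0.01, and Lnx1, Cdk8 and Itch were at -0.72, 0.12 and 0.10 on the log2 scale; Lnx1 had 24 to 49 counts per library.

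The proneural genes Neurog2 and Neurog1 were on the higher side without passing. Neurog2, the main proneural factor of the cortex, had 227 and 257 CPM in KO26F and KO23M, against 223 and 207 CPM in WT22M and WT25F (log2 fold change 0.17, edgeR adjusted p = 1), and Neurog1 was at 0.17. For Neurog2 both KO libraries lay above both carriers, an order shown by 13.6% of all genes tested. Unlike in Dll1, KO26F lay closer to WT22M than to KO23M. A link between the proneural genes and Dll1 was not tested.

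Marker sums of cell types that make these genes moved as follows. Where the title letter is a term, the fit has 1 residual degree of freedom and called 123 genes (0.757%). The 8 dividing cell markers summed to 747 and 730 CPM in KO26F and KO23M, against 651 and 659 CPM in WT22M and WT25F, with 8 of 8 on the higher side and 0 passing; with the title letter as a term 1 passed, Mki67 (0.25 on the log2 scale, adjusted p = 0.0274 by edgeR). The 8 intermediate progenitor markers summed to 854 and 791 CPM in KO26F and KO23M, against 747 and 723 CPM in WT22M and WT25F, also with 8 of 8 on the higher side and 0 passing, or 1 with the letter as a term, Tmem158 (0.33, adjusted p = 0.034 by edgeR). The 9 ventral GABAergic markers summed to 1214 and 1242 CPM in KO26F and KO23M, against 1042 and 1097 CPM in WT22M and WT25F, with 9 of 9 on the higher side and 0 passing. With the letter as a term 1 of them passed, Dlx2 (0.30, adjusted p = 0.000533 by edgeR), and Lhx6 did not (adjusted p = 0.0614 by edgeR). The carriers differed in Nkx2-1, at 47.1 CPM in WT22M and 83.6 CPM in WT25F, against 75.7 and 98.7 CPM in KO26F and KO23M. In WT22M against WT25F 4 of the 9 were on the higher side and 5 on the lower. The 11 radial glia markers share their cells with Hes1, Hes5 and Notch1. Their sum was level, at 1834 and 1876 CPM in KO26F and KO23M, against 1876 and 1793 CPM in WT22M and WT25F. Vim alone gave 689 to 770 CPM of it. Singly, 7 of 11 were on the higher side and 4 on the lower, with a median log2 fold change of 0.02 and 0 passing. The 9 neuronal markers summed to 6349 and 6458 CPM in KO26F and KO23M, against 6580 and 6704 CPM in WT22M and WT25F. Singly, 7 of 9 were on the lower side with 0 passing, and Tubb3 alone gave 2879 to 3183 CPM of the sum. The 10 endothelial markers summed to 300 and 313 CPM in KO26F and KO23M, against 330 and 331 CPM in WT22M and WT25F. Of these, 9 of 10 were on the lower side, as were 8 of 8 pericyte and mural cell markers, with 0 passing in either list. The 8 markers of mesenchyme and meninges summed to 319 and 334 CPM in KO26F and KO23M, against 405 and 396 CPM in WT22M and WT25F, with 8 of 8 on the lower side and 0 passing. With the letter as a term 3 of these passed, Col1a1, Col1a2 and Aldh1a2 (log2 fold changes -0.35, -0.42 and -0.64). So did the pericyte marker Vtn (-0.36) and, as 1 of 6 choroid plexus markers tested, Aqp1 (0.69). Aqp1 had 16.2 and 11.5 CPM in KO26F and KO23M, against 4.27 CPM in WT22M and 14.8 CPM in WT25F. Its value thus rested on WT22M, the library with the low choroid plexus sum. The 7 microglia markers summed to 66.9 and 72.8 CPM in KO26F and KO23M, against 92.2 and 74.8 CPM in WT22M and WT25F. Of these, 6 of 7 were on the lower side with 0 passing, and in WT22M against WT25F 7 of 7 were on the higher side. Lhx2, a marker of the telencephalon, had 414 and 389 CPM in KO26F and KO23M, against 387 and 359 CPM in WT22M and WT25F. The part of these cell types in the values of Dll1, Hes1, Notch1 and Mfng was not tested.

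Over the 4 libraries, the mean profile of the 10 members, centred on the log2 scale, was 0.03 in KO26F, 0.07 in KO23M, 0.01 in WT22M and -0.11 in WT25F. The 5 nearest of 6465 genes with log2 CPM averaging 5 or more were Rp9, Nell2, Tfap2c, Map2k6 and Zfp639, at Euclidean distances of 0.012 to 0.017. As many as 564 genes lay within 0.1. The profile itself departs from 0 by 0.11 at most, so genes that hardly vary come near it too. Its low point in WT25F includes the low Dll3 of that library. Whether the near genes share a pattern with the members was not tested.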

How the data were processed

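The 3 deposited tables each set another library against WT25F. Per the file headers they hold whole-number counts per gene, not normalized, and beside them a normalized value in CPM that the authors made by scaling each count to its library total. The deposited fold change and its log2 are ratios of these CPM, and the deposited p-value and adjusted p-value come from a test that no source used here names. The authors' mark of significance equalled, in every row, an adjusted p below 0.05 together with a log2 fold change of 1 or more in size. The submitters' processing notes name Bowtie2 2.2.3, TopHat2 2.0.12, HTSeq 0.6.0 and build mm9. Positions in the files equalled those of GENCODE vM21 on GRCm38 for 9 of the 10 members (20222 of 22039 shared genes). The count columns were joined by gene identifier, with missing genes at 0; a count of 0 allows 3 counts. The strand setting is not given, so reads of Notch1, Dll1 and Hes5 cannot be told from those of opposite-strand genes that share exon bases with them: 0610009E02Rik, A930024N18Rik and Gm20421, which held 0 to 74 counts per library. Gm13568 shares exon bases with Notch1 and Gm17276 with Notch3 on the opposite strand, and Gm42820 with Notch2 on the same strand; their reads were not analysed here and may fall to the members.

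Counts were tested with edgeR 4.0.16 (TMM, filterByExpr on the 2 arms, robust quasi-likelihood fit, Benjamini-Hochberg over 16252 genes), in 2 arms for KO against carriers and in 3 groups for the comparisons with WT25F, where lone libraries are assumed to vary like the KO pair. As alternatives, DESeq2 1.42.0, limma 3.58.1 voom, RLE scaling, other filters, the title letter as a term, the spread of the fit in 2 arms and leaving out each library were tried. Counting intervals are exact, at 95%. The tests were also tried on counts simulated with the spread of these libraries, with 200 genes changed. For KO against carriers, 30% of 1.5-fold and 63.8% of 2-fold changes were called, and 15 unchanged genes. In KO against WT25F 14.3% of 1.5-fold changes and 25 unchanged genes were called. In WT22M against WT25F these were 11.4% and 81. With 200 genes changed, the unchanged genes called were more than an adjusted p under 0.05 is meant to allow. This held in each comparison, and most in WT22M against WT25F. The adjusted p-values of the comparisons with WT25F, those of Dll3 included, were therefore too lenient in this simulation to bound false calls at 0.05. Scripts ran under R 4.3.3 and Python 3.11.15.

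The members and lists were chosen with earlier results of these data known. From each pathway list, genes called in any comparison and up to 3 with the smallest raw p in KO against carriers were to be named, and for the profile the 5 nearest genes. Some genes that the rule takes are not reported here.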

Additional observations from a re-analysis of the deposited data

Results flagged for a closer look

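Lfng, Rbpj and Notch3 lay on opposite sides of 0 in the F and M libraries. For Rbpj the log2 ratio of KO26F over WT25F was -0.39 (95% counting interval -0.49 to -0.28) and that of KO23M over WT22M was 0.14 (0.03 to 0.24), a difference of -0.52. For Lfng the ratios were -0.15 (-0.28 to -0.01) and 0.08 (-0.05 to 0.20), a difference of -0.22. For Notch3 they were -0.03 (-0.14 to 0.08) and 0.04 (-0.06 to 0.15), a difference of -0.07, with both intervals holding 0. These differences were not tested. Between KO26F and KO23M alone, Rbpj differed by -0.38 (-0.49 to -0.27) on the log2 scale.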

How the results depend on the processing

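Of 220 values of the 10 members under an alternative, 204 kept their direction and their side of the threshold, 7 fell short of it, 2 newly passed it and 7 changed sign. The 7 that fell short were all Dll3 against WT25F, and all 7 changes of sign came from leaving out a library, in members that were not called: over the libraries left out, Notch2 ranged from -0.05 to 0.22, Notch3 from -0.14 to 0.15, Lfng from -0.19 to 0.12, Hes5 from -0.04 to 0.27 and Rbpj from -0.32 to 0.06. Without a change of sign, Hes1 ranged from 0.12 to 0.42 and Jag1 from -0.35 to -0.07. For KO against carriers, members called ranged from 0 to 1 and all calls, 10 with every library, from 42 without KO26F, 57 without WT22M and 96 without WT25F to 110 without KO23M; the cause was not tested. Limma voom called 6 genes there and the title letter as a term 123, which leaves 1 residual degree of freedom. No member was called in either comparison with WT25F by DESeq2, without the filter or with the spread of the fit in 2 arms (0 each), nor in WT22M against WT25F by limma voom (0), where Dll3 had an adjusted p of 0.179. Over all genes, KO against WT25F gave 23 calls with DESeq2, 0 without the filter (with the filter, edgeR had 558 below an unadjusted p of 0.05) and 6 with the spread of the fit in 2 arms. WT22M against WT25F gave 33, 0 (793 at an unadjusted p under 0.05) and 0. Leaving out a KO library from the fit in 3 groups leaves no residual degrees of freedom and was not run as a test; each library's ratio stands in the report. Depth limits Hes7, Lnx1 and Aph1c most among the genes named, and Hes5 and Jag1 among the members. The headers of the count columns number the libraries within each arm, and libraries with the same number have the same title letter. The title letter was the pairing tried, and it changed the call of no member.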

Other observations

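Genes around Dll3 on chromosome 7 were looked at after its values were seen. Of 33 genes tested within 500 kb of Dll3, 16 (48.5%) were lowest in WT25F, an order shown by 20.1% of all genes tested. Timm50, a mitochondrial import gene 3278 bases away, had 104 and 115 CPM in KO26F and KO23M, 113 CPM in WT22M and 94.3 CPM in WT25F. Supt5, an elongation factor gene, had 237 and 232 CPM in KO26F and KO23M, 263 CPM in WT22M and 226 CPM in WT25F. Other close genes were not lowest in WT25F. Eid2b, 14064 bases away, had 36.9 and 35 CPM in KO26F and KO23M, 37.5 CPM in WT22M and 38.4 CPM in WT25F. Eid2, 24281 bases away, had 44.2 and 47.4 CPM in KO26F and KO23M, 45.5 CPM in WT22M and 46 CPM in WT25F. None of the 33 was called by edgeR against WT25F, in the KO libraries or in WT22M, where Timm50 was at 0.23 and 0.30 on the log2 scale.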
